A study of Mus musculus with 18 samples.

Results

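The comparison described here asks what a short synthetic oligonucleotide of scrambled sequence changes in mouse hepatocytes whose Ttr mRNA is already silenced by an siRNA. It sets the 3 libraries titled as siRNA with scrambled REVERSIR against the 3 libraries titled as siRNA, which makes 6 of the 18 libraries of the series. The 6 libraries were taken by their sample titles, and no measured value was used to choose them. The cells of all 18 libraries were cryopreserved, plateable hepatocytes; the donors were male mice of CD-1, an outbred stock, and total RNA was sequenced. The groups used were siRNA + scrambled REVERSIR, siRNA + TTR REVERSIR (the oligonucleotide directed at the siRNA), siRNA alone (labelled TTR-siRNA), scrambled REVERSIR alone, TTR REVERSIR alone and PBS, with 3 libraries each. The characteristics of the combined group name the scrambled control REVERSIR for the siRNA, and the presence of the siRNA itself is read from the title. Neither the labels nor the files give doses, times or the age of the mice. Nothing in the labels says that replicates were separate cultures or animals, so p-values measure only the spread between these libraries, which may be technical.

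An siRNA acts through its guide strand, which is loaded into an Argonaute protein and pairs with a matching mRNA that is then cut. A REVERSIR is complementary to the guide strand of a given siRNA and is made to occupy it, so that the target mRNA escapes silencing. A scrambled REVERSIR lacks that match and serves as the control for everything else an oligonucleotide brings into the cell: uptake through receptors and endosomes, binding to nucleic-acid-binding proteins, nuclease degradation, and recognition by innate sensors. Transthyretin, the product of Ttr, is a liver-secreted carrier of thyroxine and, bound to retinol-binding protein, of retinol.

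Library totals were 10145265, 8707999 and 5381532 counts for siRNA + scrambled REVERSIR replicates 1 to 3, and 4911099, 4958139 and 8075490 counts for siRNA replicates 1 to 3. Spearman correlations of log2 CPM (counts per 1e6 of the TMM-scaled library total, with a prior count of 2) were 0.994 to 0.995 within siRNA + scrambled REVERSIR, 0.992 to 0.994 within siRNA, and 0.992 to 0.995 between the groups. The hepatocyte label was borne out by albumin (Alb), the most abundant protein-coding transcript in the siRNA group, at 42175, 42551 and 41769 CPM with the scrambled REVERSIR present, against 41159.8, 40821 and 36758 CPM with siRNA alone. Mitochondrial ribosomal RNA took 2.34% to 9.56% of the counts with siRNA + scrambled REVERSIR and 2.07% to 8.39% with siRNA. PBS replicates 1 and 2 stood apart with 24.3% and 24.1%. Their group mean enters only the comparisons with PBS below. Their spread enters every standard error and p-value, since all 18 libraries were fitted together.

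Ttr, the target of the siRNA, stayed silenced in the presence of the scrambled oligonucleotide. It was measured at 227, 225 and 226 CPM in the libraries with siRNA + scrambled REVERSIR, against 220.5, 254 and 253 CPM in those with siRNA. The combined values lay within 2 CPM of each other and inside the range of the siRNA values, so that the groups overlapped. As a share of the PBS mean, Ttr was at 20.3% ± 0.0621 with siRNA + scrambled REVERSIR and at 21.8% ± 1.72 with siRNA (SD, n = 3 each). The ratio of siRNA + scrambled REVERSIR to siRNA alone was 0.932 (95% interval 0.818 to 1.06), a log2 fold change of −0.10 ± 0.091 (SE; unadjusted p = 0.274 in the edgeR quasi-likelihood fit). With the compared groups fitted alone edgeR gave an unadjusted p of 0.0877 for Ttr, and without the PBS group 0.241. An exact two-sided permutation test of the CPM gave p = 0.4, where 3 libraries against 3 cannot go below 0.1. By rank of p, Ttr stood at 2660 of the 11153 genes tested.

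**Figure D1:**
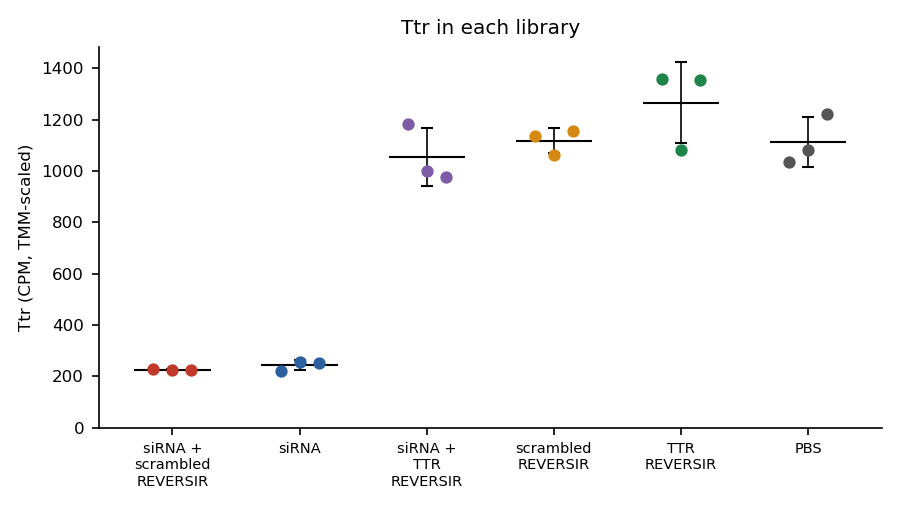
Ttr in TMM-scaled CPM (vertical axis) for each of 18 libraries in 6 groups; points are libraries, horizontal lines group means and bars ± SD (n = 3). The siRNA + scrambled REVERSIR libraries (225 to 227 CPM) and siRNA libraries (220.5 to 254 CPM) lie together, below all libraries of the other 4 groups.

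Across the transcriptome no gene passed the test. Of 11153 genes, 0 (0%) had a Benjamini-Hochberg adjusted p under 0.05 by edgeR, and 0 passed by DESeq2 or limma-voom. At an unadjusted p under 0.05 edgeR found 415 genes (3.72%), 187 higher (1.68%) and 228 lower (2.04%), DESeq2 found 240 and limma-voom 500. These counts rest on a spread estimated over all 18 libraries. With the compared groups fitted alone edgeR found 696 at that unadjusted threshold, and without the PBS group 517, with 0 adjusted calls in both. The smallest p was 5.5e-05, adjusted to 0.613. The median gene differed by 0.0774 in absolute log2 fold change, and 23 genes differed by 2-fold or more in either direction. The 3 libraries of one group did not overlap the 3 of the other for 1378 genes (12.4%), 685 of them higher (6.14%) and 693 lower (6.21%) with the scrambled REVERSIR. Before any filter, 1 gene had 10 or more counts in one group and none in the other: Ldb3, with 14 counts over the siRNA + scrambled REVERSIR libraries and 0 over the siRNA libraries, where a count of 0 allows up to 3. It is named because of that count.

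How small a change the fit could have shown depends on the level of the gene. It also depends on the spread, which was estimated over all 18 libraries, PBS included. The 95% interval of the fold change lay inside 1.5-fold in both directions for 8851 genes (79.4%), and inside 2-fold for 94.7%. Among the 2787 genes with a mean log2 CPM of 6 or more, 99.3% had an interval inside 1.5-fold. Among the 5727 genes between 3 and 6, 95.5% were inside 1.5-fold. Below 3, where 2639 genes lay, only 23.4% were, so for rare transcripts a change of 1.5-fold was often not detectable at this depth.

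**Figure D2:**
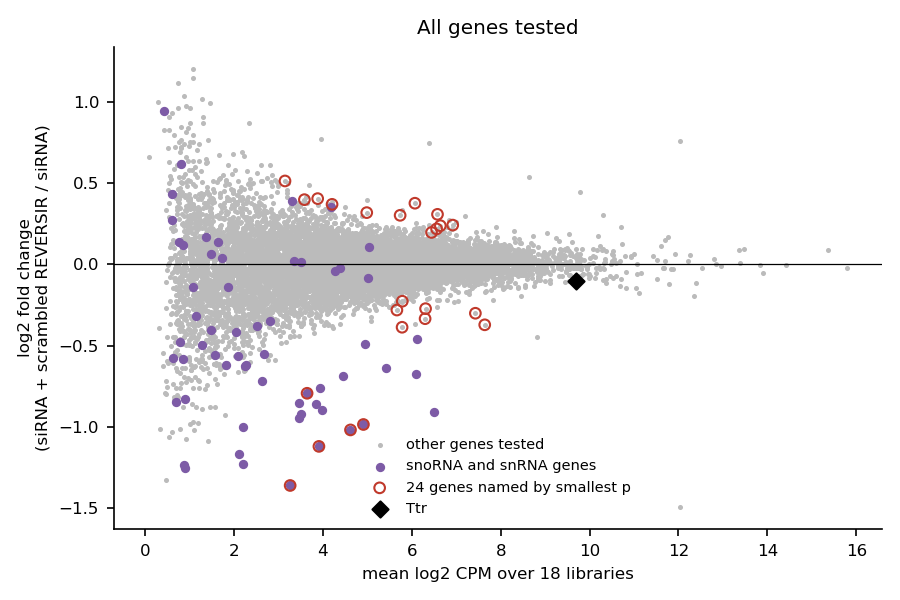
Log2 fold change of siRNA + scrambled REVERSIR over siRNA (vertical axis) against mean log2 CPM (horizontal axis) for 11153 genes; grey points are genes, purple points the 60 snoRNA and snRNA genes, red rings the 24 genes named by smallest p and the black diamond Ttr. Abundant genes sit close to 0, Ttr is at −0.10, and many purple points lie below 0.

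The most abundant secreted and structural transcripts lay close to 0. Hpx, which encodes the heme carrier hemopexin, stood at 15027, 15712 and 15781 CPM with siRNA + scrambled REVERSIR, against 16189, 16719 and 15378 CPM with siRNA, a log2 fold change of −0.05 ± 0.075. The serpin gene Serpina3k was at 0.01 ± 0.072, the selenium carrier gene Sepp1 at 0.09 ± 0.079, the translation elongation factor gene Eef1a1 at −0.01 ± 0.086, ceruloplasmin (Cp), a copper-binding ferroxidase, at 0.003 ± 0.068, the vitamin D carrier gene Gc at 0.03 ± 0.070 and beta-actin (Actb) at −0.02 ± 0.066. The iron-binding acute phase gene Lcn2 was at −0.11 ± 0.064, with 5143, 5289.8 and 5185 CPM in the combined group, all below the 5419.6, 5707 and 5768 CPM in the siRNA group. One abundant gene entry was erratic, and whether its reads came from its own mRNA was not tested. Lars2, the mitochondrial leucyl-tRNA synthetase gene, was counted at 11499.5, 9161 and 2759 CPM with siRNA + scrambled REVERSIR and at 5371, 17281 and 839 CPM with siRNA, and its log2 fold change was −0.004 ± 1.12, with an interval from −2.32 to 2.32.

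The genes with the smallest unadjusted p are given as values, since none passed the adjusted test. Ppp1r3b, encoding the liver subunit that targets protein phosphatase 1 to glycogen, had 77.1, 77.0 and 72.2 CPM with siRNA + scrambled REVERSIR, against 64.6, 56.2 and 54.6 CPM with siRNA. Its log2 fold change was 0.38 ± 0.077 (1.30-fold, adjusted p = 0.613), and the groups did not overlap. Ccng2, an atypical cyclin associated with withdrawal from the cell cycle, had 98.7, 110.2 and 97.4 CPM against 90.6, 82.2 and 76.1 CPM with siRNA (0.31 ± 0.074). Both genes showed all 3 combined libraries above all 3 siRNA libraries.

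The other 10 positive values of the 12 ran between 0.20 and 0.51, and in all 12 the groups were apart; the share of all genes whose combined group lay wholly above was 6.14%, and selection by p favours such genes. Snx18, a sorting nexin of membrane traffic (0.22 ± 0.068), and Clcn3, a chloride-proton exchanger of endosomes (0.20 ± 0.068), belong to the endosomal system. Arhgap29, which encodes a GTPase-activating protein (0.24 ± 0.076), and Cnn1, the actin-binding calponin of smooth muscle (0.51 ± 0.175), are also among them. Mxd1, a partner of Max that opposes Myc, was at 62.9, 56.0 and 49.8 CPM with the scrambled REVERSIR present, against 44.4, 49.5 and 44.2 CPM with siRNA (0.30 ± 0.0965). The lipid droplet coat gene Plin4 was at 0.32 ± 0.099, the ciliary kinase gene Nek8 at 0.41 ± 0.14, Phtf1 at 0.40 ± 0.13 and Cramp1l at 0.37 ± 0.13. The class I histocompatibility gene H2-Q4 was at 0.24 ± 0.079, and as a member of a family of near-identical genes its count is uncertain.

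Among the 12 negative values, 7 were protein-coding genes. Hamp, encoding the iron hormone hepcidin, had 46.7, 49.2 and 50.7 CPM with siRNA + scrambled REVERSIR, against 60.4, 74.6 and 57.3 CPM with siRNA (−0.39 ± 0.11). The combined libraries were all lower, and a close paralog of Hamp makes the assignment of its reads uncertain. Gss, glutathione synthetase, had 72.2, 68.7 and 79.3 CPM against 85.7, 98.1 and 92.6 CPM with siRNA (−0.33 ± 0.098), again without overlap. Slc38a3, encoding a glutamine transporter, was at −0.27 ± 0.0775, the phosphatase scaffold gene Strn4 at −0.23 ± 0.070 and Sh3pxd2b, an adaptor of podosomes, at −0.28 ± 0.090. The remaining genes were Serpina7 and Aldh1a1, described below with the carriers. None of these 7 differed by as much as 1.5-fold in its fitted value.

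**Figure D3:**
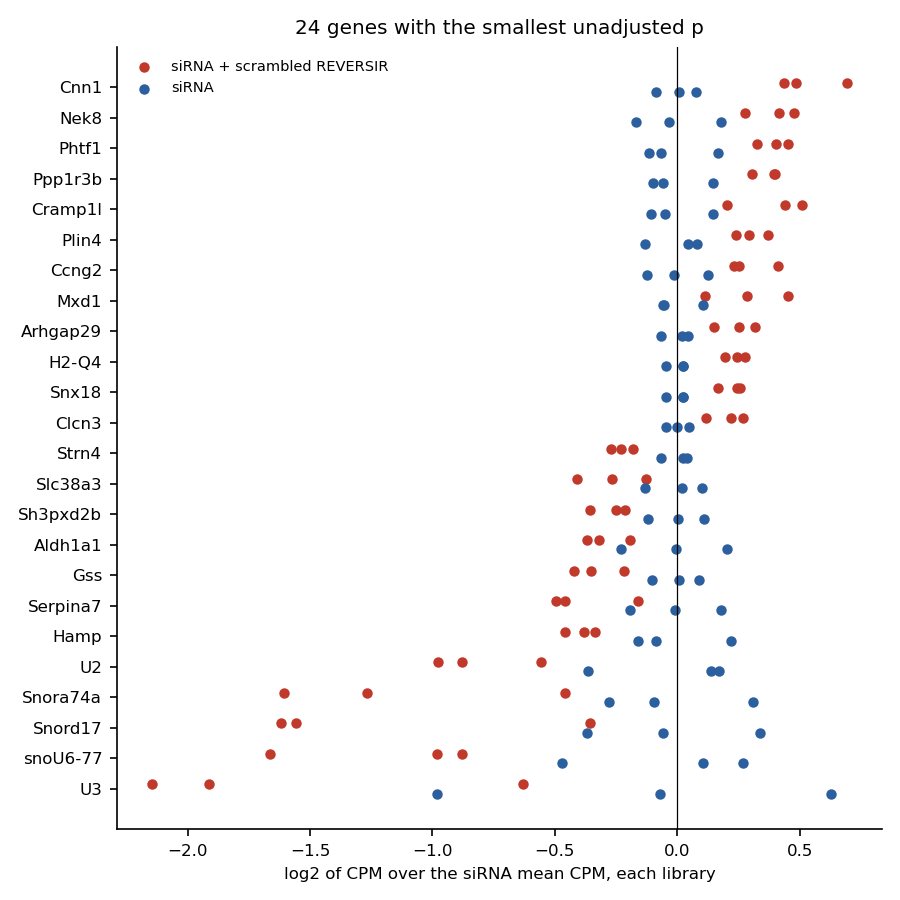
The 24 genes with the smallest unadjusted p (12 of each sign): log2 of the CPM of each library over the siRNA mean CPM (horizontal axis), with siRNA + scrambled REVERSIR in red and siRNA in blue, 3 libraries each. The 12 upper genes show the red points wholly to the right; U3, Snord17, Slc38a3, Aldh1a1 and Serpina7 overlap, and U3, snoU6-77, Snord17 and Snora74a spread most.

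The remaining 5 of the 12 negative values were small nuclear or nucleolar RNAs, a class whose values lay mostly below 0. Small nucleolar RNAs (snoRNAs) guide the modification and processing of ribosomal and other RNAs, those with C and D boxes directing methylation and those of the H/ACA kind pseudouridylation. Small nuclear RNAs (snRNAs) are the core of the spliceosome. Most mammalian snoRNAs are cut from the introns of host genes. The class was picked after its values were seen and gets no test. The genome sequences of 3 members named by rule, each with a name held by a single gene, are shown to set the RNA itself, with its box motifs, apart from the host gene around it. Capitals mark a C box (ATGATGA or GTGATGA within the first 40 bases) and the last D box (CTGA within the last 25 bases), both searched on the gene's own strand.
Snord17: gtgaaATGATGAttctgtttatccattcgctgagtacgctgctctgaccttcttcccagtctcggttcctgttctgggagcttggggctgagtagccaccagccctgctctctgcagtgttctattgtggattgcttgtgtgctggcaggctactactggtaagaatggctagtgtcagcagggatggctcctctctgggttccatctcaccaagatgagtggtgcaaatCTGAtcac
snoU6-77: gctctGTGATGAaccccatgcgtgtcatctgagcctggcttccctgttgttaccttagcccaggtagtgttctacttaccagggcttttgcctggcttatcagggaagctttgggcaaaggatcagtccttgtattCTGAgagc
Snord15a: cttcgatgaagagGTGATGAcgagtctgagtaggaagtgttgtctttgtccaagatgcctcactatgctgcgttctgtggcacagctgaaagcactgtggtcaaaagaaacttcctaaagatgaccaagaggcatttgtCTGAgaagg
In the build NCBIM37 Snord17 lies at chr2:144091715-144091952 within Snx5, snoU6-77 at chr11:69482354-69482497 within Eif4a1, and Snord15a at chr7:106631295-106631442 within Rps3, all on the minus strand. Both boxes were found in 18.2% of the 1514 annotated snoRNA genes searched; a match is a description of the letters only.

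Snord17 had 10.3, 24.7 and 10.8 CPM with siRNA + scrambled REVERSIR, against 24.5, 40.04 and 30.4 CPM with siRNA (−1.02 ± 0.31, adjusted p = 1.0). Replicate 2 of the combined group just overlapped the siRNA range. The C/D RNA snoU6-77, named for its position in the U6 spliceosomal RNA, had 6.61, 11.4 and 10.6 CPM against 22.5, 25.2 and 15.1 CPM with siRNA (−1.12 ± 0.32), without overlap. Snora68 had 8.11, 12.8 and 9.72 CPM against 21.3, 23.5 and 14.04 CPM with siRNA (−0.90 ± 0.29), and Snord15a 2.003, 2.82 and 2.95 CPM against 4.66, 3.42 and 6.55 CPM with siRNA (−1.003 ± 0.32), both without overlap. Snora74a, an H/ACA RNA, had 16.02, 28.1 and 12.7 CPM against 31.8, 47.8 and 36.1 CPM with siRNA (−0.99 ± 0.32). The rule-named entries of U3, the box C/D RNA of ribosomal RNA processing, and U2, of the spliceosome, were at −1.36 ± 0.41 and −0.79 ± 0.25; their names are shared by 47 and 51 annotated genes, so their values are uncertain. Errors were wide, and none of these RNAs passed the adjusted test.

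Of the 60 snoRNA and snRNA genes measured, 45 had a log2 fold change below 0, against 50.7% of all genes, and their median was −0.56, against −0.002 over all genes. The 49 snoRNAs had a median of −0.49 and the 11 snRNAs one of −0.79. At an unadjusted p under 0.05, 17 snoRNAs and 6 snRNAs had lower values and 1 snoRNA a higher one, where 2.04% of all genes were lower and 1.68% higher. By name, the 27 H/ACA entries had a median of −0.57 with 20 below 0, the 8 C/D entries of the SNORD series −0.36 with 6 below 0, and the 8 RNAs of the Cajal body (scaRNAs) −0.18 with 6 below 0. Only 28 of the 60 carry a name held by a single gene. The 6 measured entries annotated as miRNA genes lay the other way, all above 0 with a median of 0.64 and a range of 0.18 to 0.77. In 0 of them did the groups separate or the unadjusted p by edgeR pass 0.05. Which RNA the reads of these 6 entries came from was not tested. Genes overlapping the small RNAs, taken here as their hosts, did not share the offset. Overlap was by position on either strand, without a check that the small RNA lies in an intron. For 43 small RNAs overlapping 38 measured genes, the small RNAs had a median of −0.50 and the overlapping genes a median of −0.002. Of the overlapping genes 0 reached an unadjusted p under 0.05 by edgeR. Eif4a1 was at 0.04, Snx5 at 0.08 and Rps3 at −0.03.

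As a share of all counts, snoRNA and snRNA genes took 0.0576%, 0.0845% and 0.0560% with siRNA + scrambled REVERSIR, against 0.0868%, 0.114% and 0.0866% with siRNA. All 3 combined libraries were lower, but the share ran from 0.0362% to 0.114% over the other 12 libraries, wider than the gap between these groups. Within PBS alone it ran from 0.0362% to 0.0868%. Against siRNA + TTR REVERSIR, a comparison that uses the same combined libraries, the median of the 60 genes was −0.70, and for scrambled REVERSIR alone against PBS it was −0.16. Without the filter on low counts edgeR called 33 genes in the main comparison, 7 higher and 26 lower, of which 19 were snoRNA or snRNA genes, all 19 lower. The 7 higher included 4 miRNA entries (AC113316.1, mmu-mir-2134-4, mmu-mir-689-2 and AC115697.1, at 0.55 to 0.78). The lower ones also included the pseudogene AY036118 (−1.49), which had the smallest p, and the ribosomal RNA entry n-R5-8s1 (−0.44); with the filter their standard errors were 1.79 and 0.644, and their groups overlapped. All 33 had also been tested with the filter, where none passed.

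**Figure D4:**
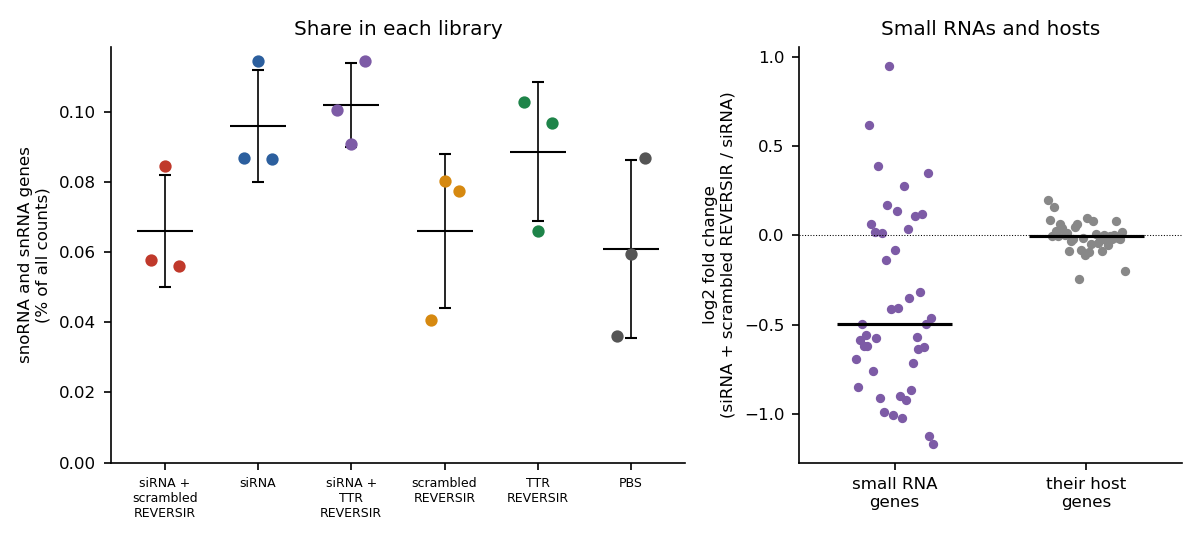
Left, snoRNA and snRNA genes as a percentage of all counts in each library by group, with group means and ± SD (n = 3). Right, log2 fold changes of siRNA + scrambled REVERSIR over siRNA for 43 small RNA genes and the 38 genes overlapping them, taken as hosts. Medians are lines at −0.50 and −0.002.

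The carriers and receptors around the silenced target were described as a group of 12 measured genes. Of these 0 passed in either direction, 8 lay below 0, and the median was −0.08. Rbp4, the retinol-binding partner of transthyretin, was at 0.06 (95% interval −0.20 to 0.33) and Alb, which also carries thyroxine, at 0.09 ± 0.071. Serpina7, encoding thyroxine-binding globulin, had 164, 168 and 207 CPM with siRNA + scrambled REVERSIR, against 202, 229 and 262 CPM with siRNA (−0.37 ± 0.10). Combined replicate 3 overlapped siRNA replicate 1. Aldh1a1, which oxidizes retinal to retinoic acid, had 153, 158 and 173 CPM against 169, 197 and 228 CPM (−0.30 ± 0.093), also with overlap. Thra, a thyroid hormone receptor, was at 2.003, 1.63 and 1.39 CPM against 3.85, 2.28 and 2.81 CPM (−0.77 ± 0.337).

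The proteins an oligonucleotide meets on its way into and inside the cell showed little difference in their mRNAs. All 24 measured uptake and endolysosome genes had an interval inside 1.5-fold, with a median of −0.01. Asgr1 and Asgr2, subunits of the asialoglycoprotein receptor that takes up sugar-conjugated siRNA, were at −0.03 (−0.21 to 0.15) and 0.06 (−0.11 to 0.24). The late endosome GTPase gene Rab7 was at 0.16 ± 0.11, the lysosomal membrane gene Lamp2 at 0.09 ± 0.069 and the endocytic receptor gene Lrp1 at −0.15 ± 0.12. In the RNA interference machinery 19 of 20 genes had an interval inside 1.5-fold, with a median of −0.01. Eif2c2, encoding the slicing Argonaute, was at −0.06 (−0.31 to 0.19) and Dicer1, which cuts small RNA precursors, at −0.02 (−0.21 to 0.17). The exception was Eif2c4, another Argonaute gene, at 6.71, 5.74 and 5.03 CPM with siRNA + scrambled REVERSIR, against 4.26, 3.98 and 5.38 CPM with siRNA (0.35 ± 0.20). The helicase gene Mov10 was at −0.13 ± 0.084 and the RNA-editing gene Adar at −0.10 ± 0.070.

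Among 25 oligonucleotide-binding proteins and nucleases 0 passed, the median was 0.06, and 16 lay above 0. In 4 of them the combined group lay wholly lower, against 6.21% of all genes, and in 1 wholly higher, against 6.14%. The 4 included the DNA-end-binding Ku subunit gene Xrcc5 and the single-stranded DNA-binding gene Rpa1. Xrcc5 had 38.1, 41.3 and 38.9 CPM with siRNA + scrambled REVERSIR, against 48.6, 48.2 and 43.7 CPM with siRNA (−0.24 ± 0.081). Rpa1 was at −0.22 ± 0.095. Rnaseh1, the nuclease that cuts RNA paired with DNA, was at −0.06 (−0.36 to 0.23), and the paraspeckle gene Nono at 0.06 (−0.09 to 0.21). The 20 mRNA decay factors had a median of 0.03, with the deadenylase gene Cnot7 at 0.13 ± 0.091, the helicase gene Ddx6 at 0.11 ± 0.097 and the decapping factor gene Lsm1 at 0.12 ± 0.12.

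Sensors of foreign nucleic acid and interferon-induced genes, a usual concern with oligonucleotides, gave 0 calls among 28 measured members. The median was 0.05, 18 lay above 0, and 26 had an interval inside 1.5-fold. Ifit1, an interferon-induced RNA-binding protein, had 133, 119.6 and 139 CPM with siRNA + scrambled REVERSIR, against 98.5, 115 and 121 CPM with siRNA (0.22 ± 0.086), with overlapping groups. Ifit2 had 22.0, 17.9 and 21.7 CPM against 9.32, 18.8 and 17.9 CPM (0.38 ± 0.18), where siRNA replicate 1 was the low library. The antiviral gene Rsad2 was at 0.14 ± 0.079. Isg15 was at −0.03 (−0.23 to 0.16), the RNA sensor gene Ddx58 at −0.06 (−0.21 to 0.09) and Irf7 at −0.07 (−0.21 to 0.07). In 0 of the 28 did the groups separate, against 12.4% of all genes.

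Acute phase and inflammatory genes lay mostly below 0, 18 of 24, with a median of −0.09 and 0 calls. Hp, encoding the hemoglobin carrier haptoglobin, had 4734, 5214 and 5344 CPM with siRNA + scrambled REVERSIR, against 5424, 6212 and 5846 CPM with siRNA (−0.19 ± 0.089). The monocyte attractant gene Ccl2 had 64.3, 56.0 and 60.1 CPM against 63.8, 81.4 and 86.2 CPM (−0.37 ± 0.12), with overlap through siRNA replicate 1. The fibrinogen chain gene Fgb was at −0.18 ± 0.078. In 6 of the 24 the combined group lay wholly lower, against 6.21% of all genes, and 1 wholly higher. The sizes were small: 22 of the 24 intervals lay inside 1.5-fold.

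Stress programmes were likewise near 0. Of 26 ER stress genes 20 lay below 0, with a median of −0.03. Pdia4, a disulfide isomerase of the endoplasmic reticulum, had 108, 119 and 120.5 CPM with siRNA + scrambled REVERSIR, against 128, 124 and 129.9 CPM with siRNA (−0.14 ± 0.057), Pdia6 was at −0.14 ± 0.068 and the stress-induced Creld2 at −0.33 ± 0.155. The master chaperone gene Hspa5 was at −0.03 (−0.20 to 0.14). The 20 p53 response genes had a median of 0.04, with Cdkn1a, which encodes the cell cycle inhibitor p21, at 0.19 ± 0.14, Ccng1 at 0.09 ± 0.061 and the kinase gene Plk2 at −0.12 ± 0.074. Among 22 oxidative stress and heat shock genes the median was −0.02. There the small heat shock protein gene Hspb1 was at −0.22 ± 0.082, the cystine transporter gene Slc7a11 at −0.23 ± 0.10 and the co-chaperone gene Dnajb1 at 0.20 ± 0.093. Of 12 cell cycle genes Ccnd1, cyclin D1, had 1.10, 0.976 and 1.22 CPM against 1.62, 1.90 and 2.81 CPM (−1.02 ± 0.38), while Cdk1 was at −0.41 ± 0.27 and Mcm4 at −0.17 ± 0.16.

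Liver metabolism showed the same range. The 31 identity and secreted protein genes had a median of 0.02, with 30 intervals inside 1.5-fold. The urea cycle genes Arg1 and Cps1 were its highest by p: Arg1 had 177, 183 and 189 CPM with siRNA + scrambled REVERSIR, against 174, 158 and 147 CPM with siRNA (0.20 ± 0.078), and Cps1 was at 0.19 ± 0.088. Ambp, the precursor gene of alpha-1-microglobulin, was at −0.12 ± 0.073, and the hepatocyte regulator Hnf4a at 0.06 (−0.05 to 0.17). In 6 of these 31 genes the combined group lay wholly higher, against 6.14% of all genes, and in 2 wholly lower, against 6.21%. Of 24 xenobiotic metabolism genes, with a median of −0.03, Cyp1a2 was at −0.16 ± 0.081, the low Cyp2c37 at −0.45 ± 0.24 and Gstm1 at −0.10 ± 0.056; Cyp2c37 and Gstm1 have close family members, so their counts are uncertain. The 22 genes of cholesterol and fatty acid synthesis all had intervals inside 1.5-fold, with a median of −0.01. Insig1, which holds back sterol synthesis, had 86.5, 90.0 and 98.1 CPM against 84.9, 80.8 and 74.9 CPM (0.19 ± 0.069) and Mvk was at −0.25 ± 0.14. Fatty acid oxidation genes (19 measured, median −0.05) included Angptl4 at −0.22 ± 0.10, Fabp1 at −0.22 ± 0.10 and their regulator Ppara at 0.18 ± 0.10.

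Of the 13 mitochondrially encoded mRNAs listed 7 were measured, and these 7 lay above 0, with a median of 0.13 and 0 calls. The gene mt-Co1, for a subunit of cytochrome oxidase, had 10816, 11082 and 10429 CPM with siRNA + scrambled REVERSIR, against 9744, 10263 and 10261 CPM with siRNA (0.09 ± 0.091), and 3 complex I genes were at 0.19 ± 0.12 (mt-Nd2), 0.30 ± 0.22 (mt-Nd6) and 0.17 ± 0.13 (mt-Nd4). These 7 come from one polycistronic genome and are not independent of each other. The share of mitochondrial ribosomal RNA varied from 2.07% to 9.56% over the same 6 libraries, and its part in these values was not tested. Cytoskeletal and S100 genes of plated cells (20 measured, median −0.02) included the intermediate filament gene Vim at −0.23 ± 0.083, with 112, 113 and 119.8 CPM against 120.2, 136 and 147 CPM, the actin-binding gene Tagln2 at −0.22 ± 0.080 and S100a6 at −0.22 ± 0.15. These 3 are among the 4 of 20 members whose combined libraries lay wholly below the siRNA libraries, against 6.21% of all genes; in 0 of the 20 did they lie wholly above.

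**Figure D5:**
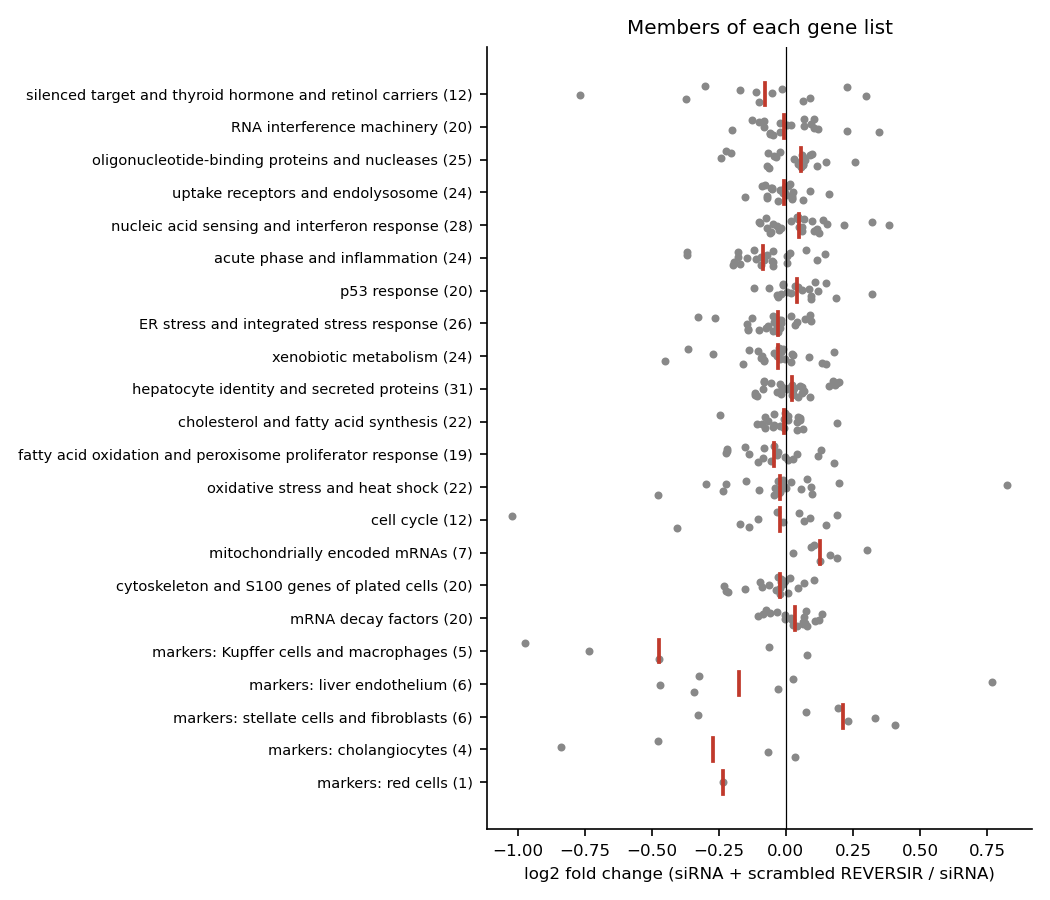
Log2 fold change of siRNA + scrambled REVERSIR over siRNA (horizontal axis) for each measured member of 22 gene lists (grey points; number measured in brackets), with the list median as a red line. List medians of the 17 lists of hepatocyte genes and processes run from −0.09 to 0.13; the short marker lists of other cell types scatter more.

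Markers of other liver cells were rare and showed no call. Kupffer cell and macrophage markers, 13 genes, summed to 329.5 to 341 CPM with siRNA + scrambled REVERSIR and to 295 to 339.7 CPM with siRNA, of which 95.1% was Cd68, a lysosomal gene at 0.08 (−0.11 to 0.27). Of 5 measured members 4 lay below 0, with a median of −0.47, which came to −0.27 with the compared groups fitted alone and to 0.08 where only genes with a mean CPM of at least 5 were kept. C1qb, a complement gene of macrophages, had 1.60, 1.19 and 1.39 CPM against 2.84, 2.66 and 2.81 CPM (−0.97 ± 0.33), Clec4f, a lectin of Kupffer cells, 4.21, 3.47 and 5.03 CPM against 5.27, 6.45 and 5.61 CPM (−0.47 ± 0.19), and the receptor gene Csf1r was at −0.73 ± 0.42. C1qa, also measured, was at −0.06 ± 0.26, with overlapping groups. Among the 8 members too rare for the fit, C1qc had 28 counts over the siRNA + scrambled REVERSIR libraries and 22 over the siRNA libraries. In the same order Cd5l had 32 and 21, Lyz2 18 and 11, Vsig4 21 and 20, and Marco 12 and 15. These counts are not scaled to depth, and the combined libraries were deeper, with a mean total of 8078270 counts against 5981580 with siRNA. In bulk RNA, fewer cells of a type and less RNA per cell cannot be told apart. Endothelial markers (11 genes, 49.1 to 58.5 CPM against 54.2 to 60.6 CPM with siRNA, 71.6% of it Stab2) included Cdh5 at 0.77 ± 0.39, Lyve1 at −0.47 ± 0.35 and Oit3 at −0.32 ± 0.22. Stellate and fibroblast markers (11 genes, 138 to 152 CPM against 124 to 135 CPM, 71.2% of it Reln) had Reln at 0.20 ± 0.077, Col3a1 at 0.41 ± 0.24 and Rgs5 at −0.33 ± 0.22. Cholangiocyte markers (8 genes) summed to 12.8 to 19.7 CPM against 16.9 to 19.1 CPM with siRNA, with Spp1 at −0.84 ± 0.37 and Sox9 at −0.07 ± 0.28; Cftr had 0 counts in both groups, and Krt7 had 4 counts in the combined group and 0 with siRNA. Lymphocyte markers were at 0 for 6 of 7 in both groups, all but Cd3e, and 0 passed the filter on low counts. Among red cell markers Alas2 made up 99.7% of the sum and was at −0.23 ± 0.11. The part of these cells in the values of the other lists was not tested.

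The same oligonucleotide was also given without siRNA, which allows a test of whether its effect depends on the siRNA. The difference of the effects, siRNA + scrambled REVERSIR over siRNA against scrambled REVERSIR over PBS, passed for 2 of 11153 genes (0.0179%), both negative, with 1267 at an unadjusted p under 0.05 (11.4%). Serpina7 was the first. Its CPM were 164, 168 and 207 with siRNA + scrambled REVERSIR and 202, 229 and 262 with siRNA, and 263, 278 and 282 with scrambled REVERSIR and 178, 161 and 186 with PBS. With siRNA present its log2 fold change was −0.37 ± 0.10, which did not pass, and the groups overlapped. Without siRNA Serpina7 was higher with the oligonucleotide (0.65 ± 0.11, adjusted p = 0.0208 by edgeR). The difference of the effects was −1.02 ± 0.15 (95% interval −1.33 to −0.71, adjusted p = 0.00583 by edgeR).

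Tagln2, a calponin-family actin-binding gene, was the other. It had 231, 213 and 226 CPM with siRNA + scrambled REVERSIR and 254, 260.2 and 264 CPM with siRNA, and 248, 249.8 and 251 CPM with scrambled REVERSIR and 168, 159 and 219 CPM with PBS. The difference was −0.68 ± 0.12 (−0.92 to −0.43, adjusted p = 0.0325 by edgeR). PBS replicates 1 and 2, which gave its lowest values, are the libraries with 24.3% and 24.1% of mitochondrial ribosomal RNA, against 5.45% in PBS replicate 3. Without both, the differences were −0.94 for Serpina7 (adjusted p = 0.585) and −0.41 for Tagln2 (adjusted p = 1.0). The Tagln2 call was also lost with either of these libraries left out (adjusted p = 0.147 and 0.195), while that of Serpina7 held (adjusted p = 0.0225 and 0.0495). Leaving out siRNA replicate 3, scrambled REVERSIR replicate 2 or 3, or siRNA + scrambled REVERSIR replicate 2 or 3 also ended the Tagln2 call (adjusted p from 0.0706 to 0.166), with differences of −0.68 to −0.65 against −0.68 with all libraries. Fitting the compared groups alone gave −0.67 (adjusted p = 0.0724) and library totals alone −0.93 (adjusted p = 0.0691).

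Further genes came close without passing. The difference was 0.72 ± 0.13 for Ndufa4l2, a hypoxia-induced mitochondrial gene (adjusted p = 0.0514), 0.80 ± 0.15 for Mxd1, 0.54 ± 0.10 for Prom1, encoding the membrane glycoprotein prominin, and −0.94 ± 0.18 for the acyltransferase gene Acnat2 (adjusted p = 0.0545 each), and −0.85 ± 0.17 for Tbc1d2b, a Rab-regulating gene (adjusted p = 0.0621). In all of these the effect with siRNA and the effect without it had opposite signs. Selection by the p of that difference favours such genes, and none of them was called with siRNA present. The number of genes called ranged from 1 without PBS replicate 1 or 2 to 381 without PBS replicate 3, and was 0 without PBS replicates 1 and 2 together. It was also 1 without siRNA replicate 3, scrambled REVERSIR replicate 2 or 3, or siRNA + scrambled REVERSIR replicate 2, 5 without siRNA replicate 1 or 2, and 9 without scrambled REVERSIR replicate 1.

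Genes called for the scrambled REVERSIR alone were then followed into the silenced cells, a comparison that shares no library with the first. Scrambled REVERSIR against PBS called 47 genes (0.421%), 13 higher (0.117%) and 34 lower (0.305%). With library totals in place of TMM scaling, 1564 were higher and 16 lower, and the median of all genes moved by 0.29 on the log2 scale. Of these 47, 18 (38.3%) had the same direction in siRNA + scrambled REVERSIR against siRNA, where 47.5% of all genes did. Their median size was 0.05 on the log2 scale in the silenced cells, against 0.52 for the oligonucleotide alone. They were selected by p in that second comparison, which favours large sizes there, so the 2 sizes are not a measure of a weaker effect. Over all genes the median sizes were 0.0774 in the silenced cells and 0.148 for the oligonucleotide alone. Of the 47, 6 had an unadjusted p under 0.05 in the silenced cells, 1 in the same direction and 5 in the opposite one. The one in the same direction, named for that reason after its values were seen, was Rprd1a, at −0.44 ± 0.163 with siRNA present and −1.13 ± 0.228 without. The 5 of the opposite sign were Serpina7 and Tagln2, both called for the difference of effects, and Prom1, Acnat2 and Cxcl16. Prom1 was at 0.19 ± 0.069 with siRNA present and −0.34 ± 0.078 without. Acnat2 was at −0.31 ± 0.11 with siRNA present and 0.63 ± 0.14 without. Cxcl16, also named after its values were seen, was at −0.17 ± 0.076 with siRNA present and 0.40 ± 0.091 without. S100a6, at −0.22 ± 0.15 with siRNA present and 0.83 ± 0.19 without, had an unadjusted p of 0.154 in the silenced cells. Without PBS replicate 1, without PBS replicate 2, and without scrambled REVERSIR replicate 2 or 3, no gene was called for the oligonucleotide alone, so that no list remained to follow; without PBS replicate 3 there were 749, of which 310 had the same direction.

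The scrambled and the TTR-directed REVERSIR were compared in the presence of the same siRNA. Ttr was the only gene of 11153 that passed (0.00897%), with 242 at an unadjusted p under 0.05 (2.17%). It stood at 227, 225 and 226 CPM with siRNA + scrambled REVERSIR, against 1182, 1001 and 978 CPM with siRNA + TTR REVERSIR, a log2 fold change of −2.22 ± 0.094 (95% interval −2.41 to −2.03, adjusted p = 4.05e-14 by edgeR). The groups were far apart. The next genes by p, given as values, were the small RNA gene AC150277.1 (−1.56 ± 0.35, adjusted p = 0.817), Plekhg2 (0.51 ± 0.12), and 3 snoRNAs: Snora68 (−1.14 ± 0.28), Snord15a (−1.20 ± 0.30) and SNORA12 (−0.49 ± 0.13). Snora68 had 8.11, 12.8 and 9.72 CPM with siRNA + scrambled REVERSIR, against 28.5, 15.02 and 22.6 CPM with siRNA + TTR REVERSIR. Its groups did not overlap.

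The authors' deposited tables compare each treatment with PBS and so share the PBS libraries. In the authors' deposited tables Serpina7 had a log2 fold change of 0.03 for siRNA + scrambled REVERSIR (adjusted p = 0.891) and of 0.32 for siRNA (adjusted p = 0.0134). For Ppp1r3b the authors' deposited tables gave 0.23 for siRNA + scrambled REVERSIR (adjusted p = 0.046) and −0.10 for siRNA (adjusted p = 0.449). For Gss the authors' deposited tables gave 0.01 for siRNA + scrambled REVERSIR (adjusted p = 0.946) and 0.28 for siRNA (adjusted p = 0.0349), and for Mxd1 −0.06 for siRNA + scrambled REVERSIR (adjusted p = 0.722) and −0.30 for siRNA (adjusted p = 0.0189). A call in one of these tables and not in the other is no test of the difference between the treatments, which is the comparison reported above with 0 calls.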

How the data were processed

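The authors deposited whole-number counts of 37991 Ensembl genes for each library. The submitters' processing notes name STAR, DESeq2 and the build NCBIM37, without versions. Neither the counting tool nor the strand of counting is given, so genes that overlap others are uncertain. In their DESeq2 tables against PBS the authors deposited log2 fold changes, p-values, a Wald score and a mean signal per gene; of these, log2 fold changes and adjusted p-values are quoted, named as such.

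Libraries were grouped by title; one file name carries another replicate number, and the title was followed. An NCBIM37 annotation named 37205 identifiers and the deposited tables another 49. All 18 libraries were fitted together with edgeR 4.0.16 (R 4.3.3) quasi-likelihood models, group as the only term, after TMM scaling and filterByExpr, which kept 11153 genes and left 12 residual degrees of freedom. P-values were two-sided and adjusted by Benjamini-Hochberg over all 11153 genes, with 0.05 as the threshold. Standard errors came from the F statistic. CPM use TMM-scaled totals. Shares of counts had counting errors only. None of the 15 pairs among the 6 compared libraries agreed within sampling noise (chi-square per degree of freedom at least 4.55). The fit was tested on simulated data.

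The members, the gene lists (444 symbols, 441 matched, 377 measured) and the tests were chosen with earlier results of these data known. Named by rule were Ttr; the 12 positive and 12 negative values with the smallest p, above a mean log2 CPM of 3 and without predicted names; the 3 members of each list with the smallest p; the 12 most abundant protein-coding genes; and the called genes, with the next 5 by p, of the difference of effects and of the comparison with siRNA + TTR REVERSIR. Genes quoted with an interval only were picked from a list for their role, after their values were seen. Alternatives were DESeq2 1.42.0, limma-voom (limma 3.58.1), other scalings, filters and sample sets, a replicate block and leaving out each replicate. Sequences were read from the NCBIM37 genome. Values of some genes of these lists are not reported here.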

Additional observations from a re-analysis of the deposited data

Results flagged for a closer look

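The effect of the scrambled REVERSIR differed with and without siRNA for 2 genes by a test of the difference itself. For Serpina7 the difference was −1.02 on the log2 scale, with −0.37 where siRNA was present and 0.65 where it was not. For Tagln2 the difference was −0.68, with −0.22 where siRNA was present and 0.46 where it was not. In both genes the effect with siRNA rests on the 6 libraries of the main comparison, where neither gene passed. The effect without siRNA rests on the scrambled REVERSIR and PBS libraries. PBS replicates 1 and 2 carried 24.3% and 24.1% of their counts in mitochondrial ribosomal RNA; the part of this in the difference was not tested beyond the values without them.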

How the results depend on the processing

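The main comparison gave 0 calls under 15 of 16 alternatives, including DESeq2, limma-voom, the compared groups fitted alone, the replicate block and each of the 6 leave-one-out fits. The exception was the fit with no filter on low counts, with 33 calls among 20065 genes, in which the estimated prior degrees of freedom were infinite, against 11.98 with the filter. Ttr ranged from −0.164 to −0.068 over the leave-one-out fits and from −0.110 to −0.095 over the other alternatives. The difference of effects called 2 genes, but 1 with the compared groups alone, 41 by DESeq2, 214 with no filter, 4 with the replicate block, 0 without PBS replicates 1 and 2 together (an alternative chosen after seeing the data), and 1 to 381 with one replicate left out. The comparison with siRNA + TTR REVERSIR called 1 gene, and 35 with no filter. Scrambled REVERSIR against PBS called 47 genes, but 7 with the compared groups alone, 169 by DESeq2, 7 by limma-voom, 1580 with library totals alone, 424 with no filter, 0 without PBS replicates 1 and 2 together, and 0 to 749 with one replicate left out. Of those called, 18 had the same direction in the silenced cells, but 3 with the compared groups alone, 679 with library totals alone, 191 with no filter, and 14 to 310 with one replicate left out. That count was not run under DESeq2 or limma-voom. The cause of these shifts was not tested.

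Signs turned for 6 genes, all near 0 or erratic. Lars2 came to 0.7317 by limma-voom, 0.0036 with no filter and 0.2733 with the replicate block, and Cp to −0.0013 with library totals alone. With one replicate left out, the values ran from −0.538 to 1.33 for Lars2, from −0.452 to 0.198 for Sox9, from −0.0027 to 0.0299 for Serpina3k, from −0.0254 to 0.0084 for Eef1a1, from −0.0131 to 0.03 for Cp and from −0.0478 to 0.0716 for Plekhg2. The 24 genes named by smallest p kept their sign in every alternative run, which their selection by p from these same libraries favours. Among list medians, that of Kupffer cell markers ran from −0.58 to 0.08, that of cholangiocyte markers from −0.71 to 0.03, that of cell cycle genes from −0.13 to 0.05 and that of mRNA decay factors from −0.03 to 0.08. The median of the snoRNA and snRNA genes ran from −0.675 to −0.439.

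Same-numbered replicates of the 2 groups had correlated deviations from their group means of 0.0858, 0.146 and 0.0789, not all over 0.1, so the numbers were not taken to pair the libraries, although each library correlated best with its own number. Chi-square per degree of freedom between same-numbered libraries of the 2 groups was 5.31, 4.55 and 8.80. It ran from 5.88 to 42.5 within siRNA + scrambled REVERSIR and from 16.3 to 26.3 within siRNA. Whether same-numbered libraries share a batch was not tested beyond the replicate block. The block gave 0 calls in the main comparison. Depth limits the rare genes most: under a mean log2 CPM of 3, 23.4% of intervals lay inside 1.5-fold.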
